A study of Sus scrofa with 6 samples.

Results

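MHC class I antigen presentation was described here through 10 genes of the pig, SLA-1, SLA-2, SLA-3, B2M, TAP1, TAP2, TAPBP, PSMB8, PSMB9 and NLRC5, chosen by name among the 18007 rows of an RNA-seq table. Of these names, 6 stood in the table itself, TAP2 was found by its identifier, and SLA-1, SLA-2 and SLA-3 shared a single unnamed row that spans all 3 loci, so that 8 rows stand for the 10 genes. The rows were compared between porcine embryonic fibroblasts (PEF5, PEF7 and PEF8) and the induced pluripotent lines made from them (piPSC5, piPSC7 and piPSC8), with 1 library per line and 3 lines per group. The fibroblasts were grown from ear tips of embryos at embryonic day 90, whose sire was a Large White boar and whose dam was a Meishan sow. Each piPSC line was derived from the same-numbered PEF line with lentiviruses carrying doxycycline-inducible Oct4, Sox2, Klf4 and cMyc together with the M2rtTA activator, was picked as colonies in LF2i medium, and was kept on feeder layers of mouse embryonic fibroblasts. Any feeder RNA in the piPSC libraries whose fragments align to pig genes would be part of their values and cannot be told apart. Its amount was not tested.

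Class I molecules show peptides from inside the cell to T cells, and they are read by natural killer cells as well. A polymorphic heavy chain, in the pig encoded by the classical swine leukocyte antigen genes SLA-1, SLA-2 and SLA-3, folds with beta-2-microglobulin, the product of B2M. Proteasomes cut the peptides, and PSMB8 and PSMB9 are catalytic subunits that interferon gamma induces to replace PSMB5 and PSMB6. TAP1 and TAP2 form the transporter that brings the peptides into the endoplasmic reticulum, where tapasin, the product of TAPBP, holds the empty heavy chain at the transporter. NLRC5 is a transcriptional activator of these genes that works with the RFX complex, CREB-family factors and NF-Y at their promoters. Most somatic cells carry class I, and pluripotent cells are known for low surface levels of it.

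Because the rows of the heavy chains and of B2M rest on near-identical copies, and because promoters of this pathway share response elements, the sequences were read from RefSeq on Sscrofa11.1, the build of the table. The coding sequences of SLA-1, SLA-2 and SLA-3 were between 94.0% and 95.3% identical to each other over 1086 aligned bases, and between 2.02% and 5.07% of the 150-base stretches of a transcript occurred unchanged in another class I transcript. RefSeq holds 2 genes named B2M on chromosome 1, at 126837721 to 126844043 and at 126865767 to 126878501. Their coding sequences were 100% identical over 357 bases, and 96.7% of the 150-base stretches of the curated B2M transcript were also in the other copy. The row of B2M runs from 126834580 to 126872431 and so holds the whole of the first copy and a part of the other.

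The 250 bases before each annotated start were searched on both strands for 4 patterns, namely GAAA and GAAA with 2 bases of any kind between them for an interferon-stimulated response element, GGGA, any base, T, 2 bases of any kind and CC for an NF-kappa-B site, CTGATTGG for the Y box that NF-Y binds and TGACGC for a CREB-type site. Over 19556 protein-coding genes, these letters stood in 3.01%, 5.02%, 3.36% and 7.03% of such windows, in the same order. The members had 12 windows, with both B2M copies and both the outer and the most used inner start of SLA-2 included. Of these windows, 2 held the response element, 4 the NF-kappa-B pattern, 1 the CREB-type site and 0 the Y box, and 7 held no match. An inner start was taken for SLA-2 only. The windows of SLA-1 and of the outer start of SLA-2, which held no match, thus depend on the annotated starts. Whether those starts are used in these cells was not tested. The 3 windows printed here whole are those before heavy chain and beta-2-microglobulin genes that held a match, with the matched letters in capitals. A capital stretch in SLA-2 and SLA-3 matches the NF-kappa-B pattern on both strands, in 2 overlapping frames, and SLA-3 also carries the CREB-type letters 29 bases before its start. The capital stretch of the B2M copy holds 2 overlapping matches to the response element, which begin 24 and 18 bases before the start. All are written 5′ to 3′ on the strand of the gene.
SLA-2, inner start, chr7:22955832-22956081, plus strand: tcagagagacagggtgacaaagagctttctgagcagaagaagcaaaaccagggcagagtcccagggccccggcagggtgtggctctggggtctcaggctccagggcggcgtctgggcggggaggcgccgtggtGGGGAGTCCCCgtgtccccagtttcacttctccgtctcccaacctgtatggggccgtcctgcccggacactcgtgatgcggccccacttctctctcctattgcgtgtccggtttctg
SLA-3, chr7:22937961-22938210, plus strand: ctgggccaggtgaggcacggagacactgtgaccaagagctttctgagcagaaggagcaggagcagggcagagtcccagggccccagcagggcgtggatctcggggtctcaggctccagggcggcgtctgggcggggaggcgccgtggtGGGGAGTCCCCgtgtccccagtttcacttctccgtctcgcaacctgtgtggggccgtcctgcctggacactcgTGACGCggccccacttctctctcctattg
B2M copy, chr1:126844044-126844293, minus strand: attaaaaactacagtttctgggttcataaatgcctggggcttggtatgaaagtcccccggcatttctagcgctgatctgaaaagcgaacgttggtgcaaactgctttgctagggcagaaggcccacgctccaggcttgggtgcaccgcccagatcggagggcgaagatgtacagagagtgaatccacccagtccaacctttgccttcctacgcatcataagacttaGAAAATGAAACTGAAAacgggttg
The SLA-2 and SLA-3 windows were 92.8% identical over 235 aligned bases. Between TAP1 and PSMB9, which are transcribed away from each other, the 143 bases that separate their RefSeq starts held none of the 4 patterns. A pair of overlapping response elements lay just beyond that gap, inside TAP1, 163 to 148 bases before the start of PSMB9, and 30 bases around them are shown because the stretch falls in the window of one member and in the gene of another.
PSMB9 and TAP1, chr7:25071963-25071992, strand of PSMB9: tttatggGAAAGGGAAAACGAAAgcggccg
The window of PSMB9 also held an NF-kappa-B pattern 222 bases before the start, and that of NLRC5 held a palindromic one at 219. A match here is a match of letters only. The lack of a match does not show that an element is absent, since variant forms of the 4 patterns were not searched.

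Values are FPKM, fragments scaled to the length of the gene model and to the fragments of the library. The libraries held between 15146576 and 17836510 fragments in PEFs and between 11010629 and 15050204 in piPSCs, recovered from the steps of the values. Of 8 fibroblast markers, 8 fell in piPSCs, and their summed FPKM was between 4294 and 6088 in PEFs and between 128 and 215 in piPSCs. Among pluripotency markers, POU5F1 and NANOG were at most 0.155 and 0.0919 FPKM in any piPSC library, while SOX2 was at 3.01, 2.49 and 0.129 FPKM in piPSC5, piPSC7 and piPSC8. LIN28B, an RNA-binding protein of early and pluripotent cells, was at 2.51, 0.281 and 8.90 FPKM in the same order, against at most 0.0367 in PEFs. SOX2 and LIN28B were the 2 markers of this list that could be tested, and limma called 0 of them (2 higher at an unadjusted p under 0.05 and by limma voom). The endogenous POU5F1 and NANOG, which define pluripotent cells, were thus near 0. Summed over the 7 blood and immune cell markers with a row, the level was between 11.4 and 24.0 FPKM in PEFs and between 1.26 and 3.29 in piPSCs, most of it CD14 in PEFs (9.20 to 21.9 FPKM, against 0.110 to 0.239 in piPSCs), with CSF1R at most 0.313 FPKM, AIF1 at most 0.122 and ITGAM at most 0.153 in any library and TYROBP at 0 in the piPSC libraries. CD68 made up most of the sum in piPSCs, at 1.98, 0.804 and 2.71 FPKM in lines 5, 7 and 8, against 1.11, 0.786 and 2.29 in PEFs (limma adjusted p = 0.620). Endothelial markers summed to at most 2.59 FPKM and keratinocyte markers to at most 9.09, the latter in piPSC7. There KRT14 was at 3.04 and KRT5 at 0.806 FPKM, against at most 0.483 and 0.0313 in any other library. KRT10 was alike in the piPSC libraries, from 4.52 to 5.24 FPKM. The part of these cells in the results was not tested. The lines were described as male, yet the Y-linked DDX3Y was at 25.3 FPKM in PEF8 and 42.5 in piPSC8 and listed at 0 in the other 4 libraries, so line 8 stood apart in both groups, and every member count was repeated without each library.

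The comparison of piPSCs with PEFs asked which genes of the pathway changed when fibroblasts were reprogrammed. Heavy chain, light chain and tapasin RNA were several-fold lower in piPSCs, while the transporter and the interferon-inducible proteasome subunits did not pass the test. On log2(FPKM + 1), limma was fitted over 12428 genes whose mean FPKM was 0.5 or more, and a gene was called at a Benjamini-Hochberg adjusted p under 0.05 with at least a 2-fold change. Of the 7 member rows that could be tested, 3 were called lower (the SLA-1/2/3 row, B2M and TAPBP), 0 were called higher (0 also at an unadjusted p under 0.05 and by limma voom) and 4 were not called, against 16.7% of all tested genes called lower and 20.2% called higher. Counting only the 6 rows named in the table, 5 were tested and 2 of them (B2M and TAPBP) were called lower. The median log2 fold change was -0.76 over the tested members and 0.20 over all tested genes. Dividing each library by its median ratio over genes moved the latter to -0.01 and turned the balance of all calls from 2070 lower and 2505 higher to 2511 lower and 1879 higher, with the member calls at 3 lower and 0 higher under both. In bulk RNA, fewer cells of a type and less RNA per cell cannot be told apart.

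**Figure D1:**
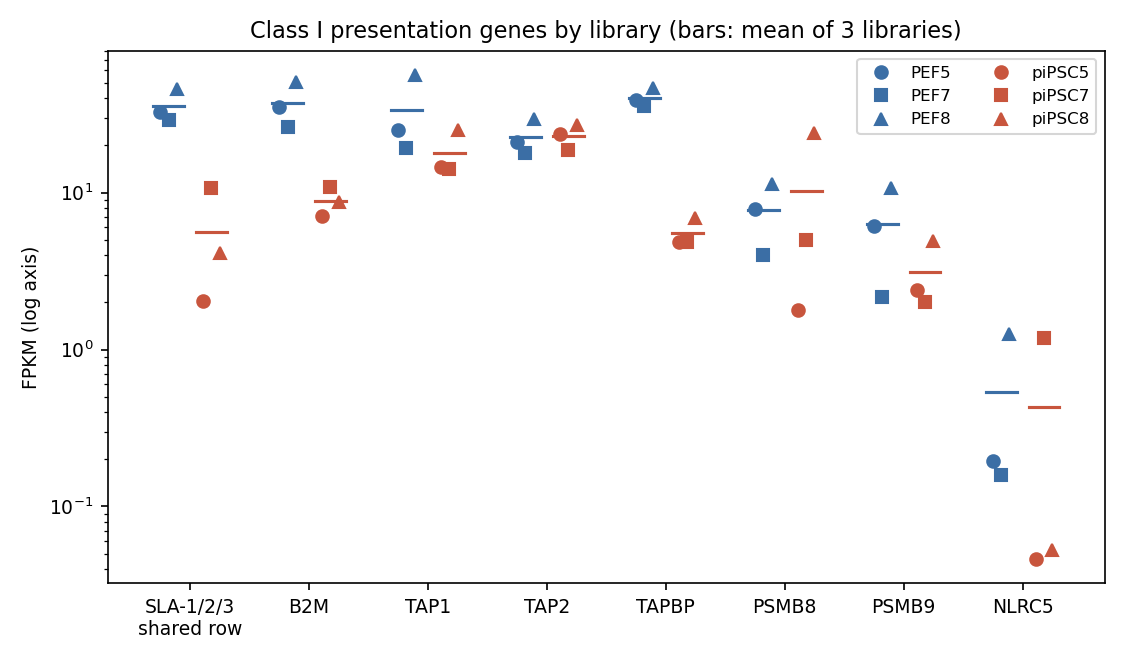
FPKM on a log axis of the 8 member rows in the 3 PEF libraries (blue) and the 3 piPSC libraries (red), with symbols for the lines and bars at the group means. The groups do not overlap for the SLA-1/2/3 row, B2M and TAPBP, and they overlap for the other 5 rows.

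The row that spans the classical heavy chains (ENSSSCG00000001229, chromosome 7 from 22823841 to 22962547) was at 32.8, 28.9 and 45.3 FPKM in PEF5, PEF7 and PEF8, and at 2.05, 10.6 and 4.13 FPKM in piPSC5, piPSC7 and piPSC8. All piPSC libraries were below all PEF libraries, and piPSC7 kept the most. The mean fell from 35.7 ± 8.59 to 5.61 ± 4.48 FPKM (SD, n = 3 each), a 6.36-fold difference of means, and the log2 fold change was -2.67 with an SE of 0.48 (limma adjusted p = 0.0047). As a single value, the log2(FPKM + 1) of this row differed by -2.67 between the groups, and the exact permutation test of 3 against 3 lines, two-sided, gave p = 0.1, the smallest it can give. The row covers 16808 bases of gene model and also spans SLA-5 and 2 further class I genes. Its FPKM pools the fragments of all of them over that length. It is thus neither a sum of the FPKM of the classical genes nor the level of any single locus.

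B2M (ENSSSCG00000004687), which supplies the light chain shared by every class I molecule, was at 34.9, 26.0 and 50.3 FPKM in PEF5, PEF7 and PEF8. In piPSC5, piPSC7 and piPSC8 it was at 7.13, 10.9 and 8.68 FPKM. The groups did not overlap, and the piPSC libraries lay close together. B2M fell 4.17-fold between the means, with a log2 fold change of -1.91 and an SE of 0.27 (limma adjusted p = 0.00207). How fragments that fit both copies of B2M were counted is not given in the sources used here, and the part of such fragments in this value was not tested.

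TAPBP (ENSSSCG00000001507, chromosome 7 from 29663494 to 29674077) encodes tapasin, the bridge between the transporter and the heavy chain. It was at 38.8, 35.5 and 46.6 FPKM in the PEF lines 5, 7 and 8 and at 4.82, 4.87 and 6.87 FPKM in the piPSC lines. Its fall was the most even of the members, with log2 ratios of -2.77, -2.63 and -2.60 within lines 5, 7 and 8. The means differed 7.30-fold, and the log2 fold change was -2.67 with an SE of 0.19 (limma adjusted p = 0.00028). No other row overlaps that of TAPBP. Among all tested genes, 26.8% had no overlap between groups with piPSCs lower, against 3 of the 7 tested members.

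Neither of the 2 chains of the peptide transporter was called. TAP1 (ENSSSCG00000025618, chromosome 7 from 25062771 to 25072038) was at 25.1, 19.2 and 56.1 FPKM in PEF5, PEF7 and PEF8 and at 14.5, 14.2 and 25.0 FPKM in piPSC5, piPSC7 and piPSC8. Each piPSC library was below the PEF library of its own line, but piPSC8 was above PEF7 and near PEF5, and the log2 fold change of -0.76 had an SE of 0.42 (limma adjusted p = 0.169). With the line as a block, the adjusted p was 0.0352 at the same fold, which stayed under 2-fold and so made no call. TAP2 (ENSSSCG00000025593, chromosome 7 from 25045174 to 25056863) was at 21.0, 17.9 and 29.4 FPKM in PEFs and at 23.6, 18.6 and 26.8 FPKM in piPSCs, in the order of lines 5, 7 and 8. The 2 groups of TAP2 lay over each other, with a log2 fold change of 0.03 and an SE of 0.23 (limma adjusted p = 0.925), and the sign turned to -0.23 when libraries were divided by their median ratio.

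Ratios within a library do not depend on how libraries are scaled, and those to TAP2 were taken after the values had been seen. TAPBP over TAP2 was 1.85, 1.99 and 1.59 in PEF5, PEF7 and PEF8 and 0.204, 0.263 and 0.256 in piPSC5, piPSC7 and piPSC8. B2M over TAP2 was 1.66, 1.46 and 1.71 in PEFs and 0.302, 0.585 and 0.324 in piPSCs. TAP1 over TAP2 was 1.19, 1.07 and 1.91 in PEFs and 0.616, 0.765 and 0.930 in piPSCs. In each of these ratios all PEF libraries were above all piPSC libraries, TAP1 over TAP2 included.

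PSMB8 and PSMB9 varied more between lines than between cell types. PSMB8 (ENSSSCG00000026951) was at 7.87, 4.0 and 11.3 FPKM in PEF5, PEF7 and PEF8 and at 1.78, 5.01 and 23.8 FPKM in piPSC5, piPSC7 and piPSC8. The piPSC libraries held both the lowest and the highest value, and the log2 fold change was -0.13 with an SE of 0.79 (limma adjusted p = 0.899). PSMB9 (ENSSSCG00000001463) was at 6.11, 2.16 and 10.8 FPKM in PEFs and at 2.40, 2.02 and 4.91 FPKM in piPSCs, again for lines 5, 7 and 8. Its highest piPSC value was above the PEF7 value, and the log2 fold change was -0.71 with an SE of 0.52 (limma adjusted p = 0.282). These rows rest on few fragments, between 58 and 568 per library for PSMB8 and between 32 and 217 for PSMB9. The PSMB8 row (chromosome 7 from 25053132 to 25073046) overlaps the whole TAP1 row, 3732 bases of the TAP2 row and, on the other strand, 1335 bases of the PSMB9 row. The TAP1 and PSMB9 rows overlap as well, by 327 bases on opposite strands. The library kit does not mark strand, and how shared fragments were assigned is not given in the sources used here, so PSMB8, PSMB9, TAP1 and TAP2 are uncertain where they overlap.

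Set against the constitutive subunits that they replace, PSMB8 over PSMB5 was 0.381, 0.187 and 0.619 in PEF5, PEF7 and PEF8 and 0.0887, 0.189 and 1.10 in piPSC5, piPSC7 and piPSC8. PSMB9 over PSMB6 was 0.187, 0.0526 and 0.286 in PEFs and 0.0483, 0.0353 and 0.0883 in piPSCs. PSMB10, the remaining inducible catalytic subunit, over PSMB7 went the other way, with 0.0248, 0.0285 and 0.0450 in PEFs and 0.0568, 0.0513 and 0.0537 in piPSCs. The mean log2 ratio of (FPKM + 1) over the 3 pairs was -2.88 ± 0.69 in PEFs and -3.19 ± 0.68 in piPSCs (SD, n = 3 each), a difference of -0.31 (exact permutation test, two-sided, p = 0.6, with 0.1 the smallest possible). Inducible subunits were thus the minor form in both cell types by this measure, except that PSMB8 was above PSMB5 in piPSC8. No shift of this mean between the groups was detectable at this number of lines, and the pairs did not move alike. In PSMB10 over PSMB7 all piPSC libraries were above all PEF libraries, while the ratios of PSMB8 and PSMB9 overlapped between groups. PSMB5 was taken from an unnamed row that holds its locus (ENSSSCG00000002036, chromosome 7 from 76014516 to 76058891), with a gene model of 7659 bases. Whether that row counts other genes was not tested, so the PSMB8 ratio, its exception in piPSC8 and the mean over the pairs are uncertain. The gene models of PSMB10, PSMB6 and PSMB7 were 5501, 2919 and 1075 bases. FPKM is scaled to these lengths, so the PSMB9 and PSMB10 ratios, and which form is minor, depend on them as well.

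NLRC5 (ENSSSCG00000039751, chromosome 6 from 18932637 to 19036843) was too low to be tested, with a mean under 0.5 FPKM. It was at 0.195, 0.160 and 1.25 FPKM in PEF5, PEF7 and PEF8 and at 0.0463, 1.19 and 0.0528 FPKM in piPSC5, piPSC7 and piPSC8, which are 30, 23 and 163 fragments and 6, 122 and 5 fragments. High values stood in PEF8 and piPSC7, one in each group. The piPSC line with the most NLRC5, piPSC7, was also that with the most of the SLA-1/2/3 row and of B2M. It was the lowest of the piPSC libraries for TAP1, TAP2 and PSMB9 and in the middle for TAPBP and PSMB8. A link between NLRC5 and the other members was not tested. Without the filter on low values, the log2 fold change was -0.12 with an SE of 0.40 (limma adjusted p = 0.829).

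**Figure D2:**
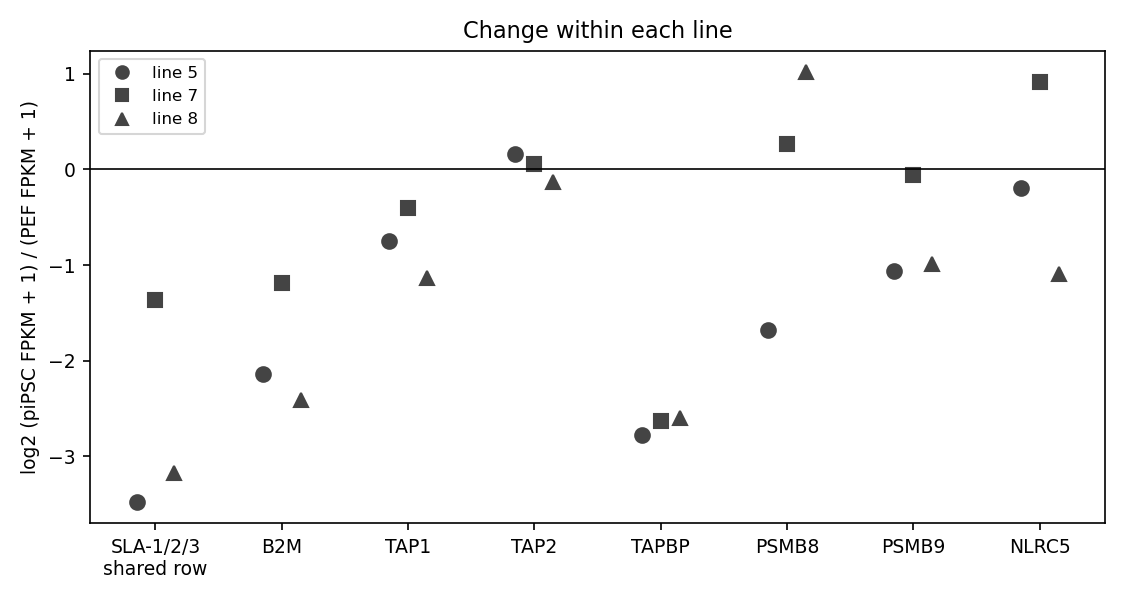
Log2 ratio of piPSC to PEF FPKM, each plus 1, within lines 5, 7 and 8 for the 8 member rows, with 0 for equal levels. TAPBP has nearly the same ratio in the 3 lines, from -2.77 to -2.60, while PSMB8 lies on both sides of 0, from -1.67 to 1.02.

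Within the PEF group the members moved together by line. In 8 of the 8 member rows PEF8 was highest and PEF7 lowest, and this order stood in 22.5% of all tested genes. It stood as well in 7 of the 18 genes of class I transcription and interferon gamma signalling. Among the piPSCs no line led throughout, since piPSC8 was highest in 5 rows, piPSC7 in 3 and piPSC5 in 0. The ratio within a line showed it as well, at -3.47, -1.36 and -3.17 (log2) for the SLA-1/2/3 row and -2.14, -1.19 and -2.41 for B2M in lines 5, 7 and 8. Line 7 had the smallest fall of both. With 1 library per line, differences between lines were not tested.

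By mean FPKM, a value per length, the order in PEFs was TAPBP at 40.3 ± 5.73, B2M at 37.1 ± 12.3, the SLA-1/2/3 row at 35.7 ± 8.59, TAP1 at 33.4 ± 19.9, TAP2 at 22.8 ± 5.96, PSMB8 at 7.71 ± 3.64, PSMB9 at 6.34 ± 4.31 and NLRC5 at 0.535 ± 0.620 (SD, n = 3). In piPSCs it was TAP2 at 23.0 ± 4.17, TAP1 at 17.9 ± 6.12, PSMB8 at 10.2 ± 11.9, B2M at 8.89 ± 1.87, the SLA-1/2/3 row at 5.61 ± 4.48, TAPBP at 5.52 ± 1.17, PSMB9 at 3.11 ± 1.57 and NLRC5 at 0.430 ± 0.660. Neighbours in each order lay within the larger of their SDs, apart from TAP2 and PSMB8 in PEFs, TAPBP and PSMB9 in piPSCs, and PSMB9 and NLRC5 in both groups. The rows of B2M and of the heavy chains join several copies, so their lengths, and with them their places in the order, are uncertain. The tapasin row went from the head of the list in PEFs to below the transporter chains in piPSCs.

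Other class I rows of chromosome 7 were taken by the table's own protein match (class I histocompatibility antigen or MHC class I polypeptide-related), a set chosen after values had been seen. Of 9 such rows, the SLA-1/2/3 row included, 9 were tested, 5 were called lower, 0 higher and 4 were not called. Over all tested genes, 16.7% were called lower and 20.2% higher. The SLA-5 row and an unnamed row (ENSSSCG00000001231) lie inside the SLA-1/2/3 row on the same strand, so the 9 rows are not all separate loci. Summed over the 9 rows, FPKM was 177, 153 and 241 in PEF5, PEF7 and PEF8 and 21.6, 30.2 and 17.4 in piPSC5, piPSC7 and piPSC8. The highest FPKM in PEFs stood in a row over the RefSeq pseudogene SLA-11 (ENSSSCG00000001341, chromosome 7 from 23004251 to 23047651). By fragments the longer SLA-1/2/3 row held more, with 9842, 8117 and 11544 in PEF5, PEF7 and PEF8 against 5160, 4394 and 5924. The SLA-11 row was at 103, 93.7 and 139 FPKM in PEFs and at 7.34, 5.76 and 5.99 FPKM in piPSCs. Its log2 fold change was -3.93 with an SE of 0.20 (limma adjusted p = 0.00013). Whether its fragments come from that locus or from like sequences elsewhere was not tested.

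The nonclassical genes SLA-6 and SLA-7 share a row (ENSSSCG00000001398), which was at 16.9, 15.4 and 20.9 FPKM in PEF5, PEF7 and PEF8 and at 3.39, 2.25 and 1.79 FPKM in piPSC5, piPSC7 and piPSC8. It fell with a log2 fold change of -2.44 and an SE of 0.23 (limma adjusted p = 0.000548). SLA-8, the neighbouring nonclassical gene, was at 9.24, 7.06 and 8.42 FPKM in PEFs and at 7.57, 7.89 and 4.76 FPKM in piPSCs. Its groups overlapped, and the log2 fold change was -0.27 with an SE of 0.23 (limma adjusted p = 0.345). The difference between these neighbours was not tested. A row matched to the stress ligand family MIC (ENSSSCG00000001394) was at 6.51, 4.37 and 18.8 FPKM in PEFs and at 0.524, 0.353 and 0.0954 FPKM in piPSCs, and fell with a log2 fold change of -2.82 and an SE of 0.48 (limma adjusted p = 0.00397). The row over the pseudogene SLA-4 (ENSSSCG00000024161) had 83, 17 and 77 fragments in PEFs and 0 in each piPSC library. Against a floor of 3 fragments per library, it was at least 14.9-fold lower in piPSCs, a limit that covers counting error only.

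**Figure D3:**
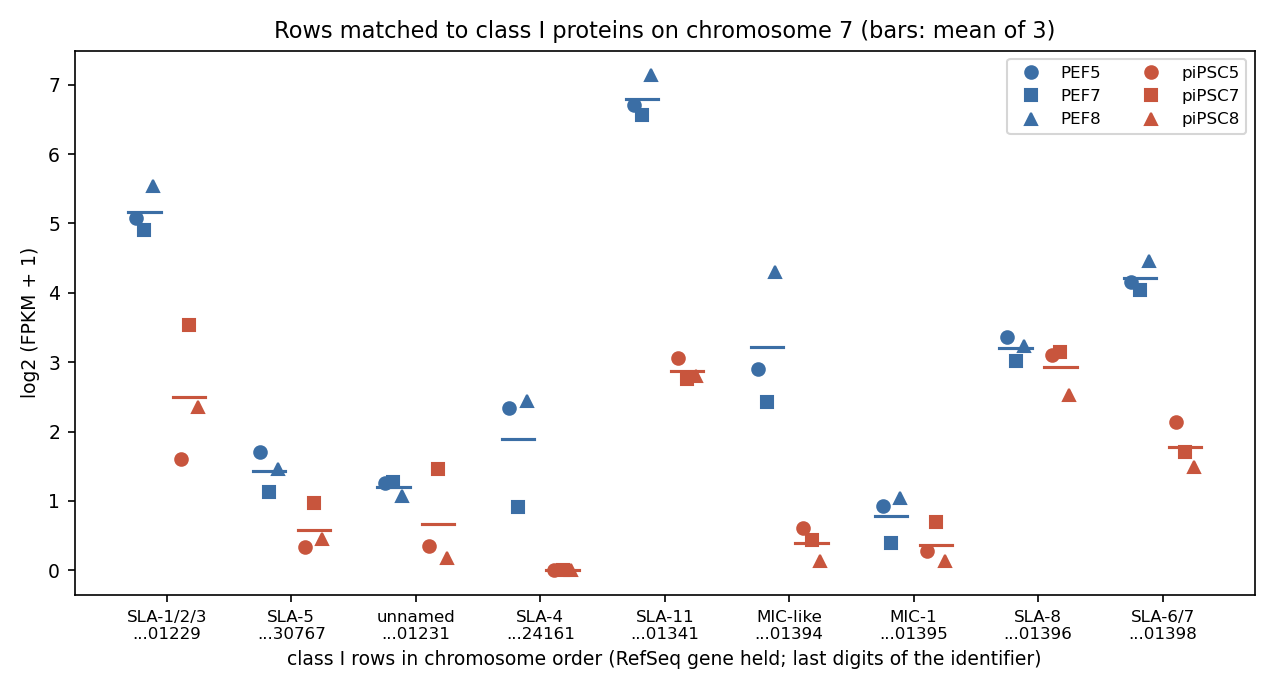
Log2(FPKM + 1) of the 9 rows of chromosome 7 matched to class I proteins, in chromosome order, in the 3 PEF libraries (blue) and the 3 piPSC libraries (red), with bars at the group means. The SLA-11 row is highest in PEFs and falls in all lines, the SLA-8 row overlaps between groups, and the SLA-4 row is at 0 in every piPSC library.

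Across 5 lists of further genes of the pathway, 55 rows stood for 60 genes, and of the 44 tested, 11 (25.0%) were called lower, 7 (15.9%) higher and 26 were not called, beside 16.7% and 20.2% of all tested genes. The median log2 fold change was -0.34, against 0.20 over all tested genes. In the list of class I-like molecules, 3 of 6 tested rows were called lower and 0 higher (0 also at an unadjusted p under 0.05 and by limma voom), with a median of -1.30. FCGRT, the heavy chain of the neonatal Fc receptor, which also pairs with beta-2-microglobulin, fell from 98.8 ± 2.80 to 20.5 ± 4.12 FPKM (log2 fold change -2.23, SE 0.18, limma adjusted p = 0.000348). HFE, another partner of beta-2-microglobulin and a regulator of iron uptake, fell from 5.63 ± 2.48 to 1.01 ± 0.948 FPKM (log2 fold change -1.76, SE 0.41, limma adjusted p = 0.0127). SLA-5 had a log2 fold change of -0.85, under 2-fold (limma adjusted p = 0.0408), and was called lower with a pseudocount of 0.1, after rescaling to a sum of 1000000, without PEF7 and without piPSC7. Its row held only 61, 30 and 40 fragments in PEF5, PEF7 and PEF8 and 6, 17 and 6 in piPSC5, piPSC7 and piPSC8. It lies inside the SLA-1/2/3 row on the same strand, so it is no separate measurement where the 2 overlap.

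Among loading chaperones and trimming peptidases, 4 of 13 tested genes were called lower, 3 higher and 6 were not called, with a median of -0.71. The shares over all tested genes were 16.7% lower and 20.2% higher. Calreticulin (CALR), which belongs to the loading complex, fell by 1.22 on the log2 scale, from 684 ± 144 to 290.2 ± 37.4 FPKM. ERAP1, which trims peptides in the endoplasmic reticulum, fell by 1.57, TAPBPL, a peptide editor related to tapasin, fell by 1.52, and the chaperone HSPA5 fell by 1.29. The call of ERAP1 was lost without PEF5. PDIA3, the disulfide partner of tapasin in the loading complex, went from 788 ± 99.2 to 402 ± 100 FPKM (log2 fold change -0.99, limma adjusted p = 0.0108), just under the 2-fold line, and was called lower under both rescalings and without PEF8 or piPSC8. In the other direction, THOP1, a cytosolic peptidase, rose by 1.70 and UGGT1, which senses misfolded glycoproteins, rose by 1.52. TPP2, a cytosolic peptidase, rose by 1.22, a call lost under both rescalings.

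Of the proteasome list, 6 genes were tested, 0 were called either way by limma (3 at an unadjusted p under 0.05, all higher, and 1 by limma voom), and the median was 0.45, against 0.20 over all tested genes. PSMB10 and PSME3 had log2 fold changes of 0.98 and 0.95 (limma adjusted p = 0.00882 and 0.00345), each under 2-fold, and limma voom on fragments called PSMB10 higher in piPSCs, as did the fits without PEF8 and without piPSC8. PSME3 was called higher without piPSC7. PSME1 and PSME2, the interferon-inducible proteasome caps, were at most 0.350 and 0.308 FPKM in any library and were not tested. Their rows held at most 8 and 13 fragments in any library, and whether these are all fragments of the genes is not known. Of MHC class II, 7 of 9 genes had a row, 1 was tested (CD74) and 0 were called by limma (0 at an unadjusted p under 0.05 and by limma voom), and the summed level was between 0.885 and 3.23 FPKM over the 6 libraries. SLA-DRA and SLA-DRB1 were not analysed here.

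The genes of class I transcription and interferon gamma signalling were called in both directions. Of 18 tested, 4 were called lower, 4 higher and 10 were not called, with a median of -0.45. Over all tested genes, 16.7% were called lower and 20.2% higher. Those called lower in the list were IFNGR2, IFNGR1, JAK1 and IRF1. JAK2, IRF2, NFKB1 and RELA were not called (log2 fold change -0.50, -0.66, -0.45 and -0.45), though IRF2 was after rescaling to a sum of 1000000. CIITA, at -0.99 (limma adjusted p = 0.0202), was just under 2-fold. It was called lower under both rescalings and by limma voom, among other alternatives. IFNGR2, a chain of the interferon gamma receptor, was at 32.6, 18.7 and 46.9 FPKM in PEF5, PEF7 and PEF8 and at 0.540, 1.51 and 1.14 FPKM in piPSC5, piPSC7 and piPSC8 (log2 fold change -3.97, SE 0.36, limma adjusted p = 0.000488). IFNGR1, the other chain, fell by 1.04, the kinase JAK1 by 1.15, and IRF1, a transcription factor that binds interferon-stimulated response elements, by 1.88, from 17.2 ± 6.04 to 3.93 ± 1.47 FPKM. The call of JAK1 was lost without piPSC5.

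Those called higher were the subunits of RFX and NFYB of NF-Y. The NF-Y subunits NFYA and NFYC were not called, with log2 fold changes of 0.39 and -0.20. Of the CREB family, CREB1 and ATF1 were not called either, at 0.68 and 0.55, though CREB1 was called higher without PEF8. RFXANK, RFX5 and RFXAP, the 3 subunits of RFX, rose by 1.62, 1.24 and 1.19 on the log2 scale (limma adjusted p = 0.00103, 0.00892 and 0.00988), and NFYB of NF-Y rose by 1.17. After division by the median ratio or to equal sums, RFXAP and NFYB were no longer called, and RFX5 was not called without PEF7. With the median ratio, all 18 genes gave 6 lower and 2 higher.

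**Figure D4:**
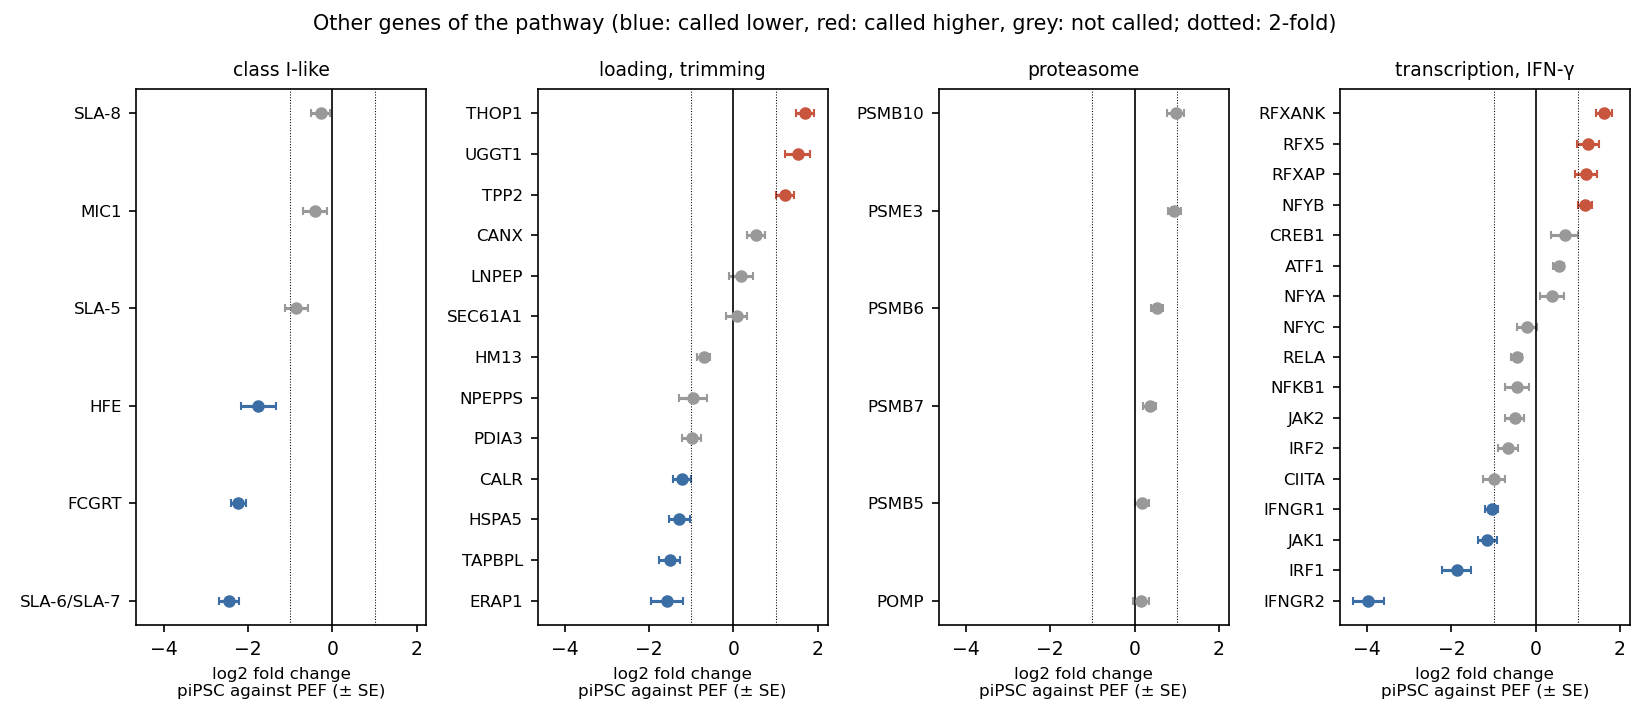
Log2 fold change of piPSCs against PEFs with its SE for tested genes of 4 lists, blue where called lower, red where called higher and grey where not called, with dotted lines at 2-fold. IFNGR2 lies farthest to the left at -3.97 and THOP1 farthest to the right at 1.70.

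From the SLA-1/2/3 row to TAPBP, chromosome 7 holds 6 member rows and 129 others over 6.85 megabases. Of the 93 others that were tested, 17 (18.3%) were called lower and 14 (15.1%) higher, near the 16.7% and 20.2% of all tested genes, and their median log2 fold change was -0.10. The named genes with the largest falls there were IER3, DDAH2 and HSP70.2, at -5.93, -3.69 and -3.56, and the largest rises were TCF19, BMP5 and PRIM2, at 2.51, 1.94 and 1.79. The calls of TCF19 and BMP5 were each lost on leaving out any of 5 single libraries. Nearest to the median profile of the tested members over the 6 libraries were BVES, PEAK1, KLF7, KCTD7 and MB21D1, with root mean square differences between 0.121 and 0.281 on the log2 scale. Their limma adjusted p lay between 0.0690 and 0.131, so 0 of these 5 genes were called (1 at an unadjusted p under 0.05, 0 by limma voom). With the line as a replicate block, BVES and PEAK1 were called lower, with adjusted p of 0.0378 and 0.0457. Without PEF7 the fit called BVES, PEAK1 and MB21D1 lower, and without piPSC8 it called BVES, KLF7 and KCTD7 lower.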

How the data were processed

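RNA of 3 PEF and 3 piPSC lines was read from both ends over 150 bp. The authors deposited FPKM values per gene. Bowtie2 2.2.3, HISAT2 2.1.0, HTSeq 0.6.0 and the build Sscrofa11.1 stand in the submitters' processing notes without roles, and the treatment of shared fragments and the annotation release are not given in the sources used here. RefSeq on the same build gave positions (99.7% of 13219 shared symbols overlapped) and sequences. Members and lists were chosen with earlier results of these data known.

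Whole fragments were recovered for 18007 genes from the FPKM steps (tolerance 0.001 fragments). For genes seen in few libraries this gives the fewest fragments that fit the values. The test was limma 3.58.1 in R 4.3.3 (lmFit, eBayes with a trend) on log2(FPKM + 1), unpaired, two-sided, with Benjamini-Hochberg adjustment. A fold change on this scale understates that of low genes. The fit was tested on simulated data. Ratios and exact permutation tests used Python 3.11.15 with scipy 1.17.1. Each value comes from 1 library per line, so p-values measure the spread between 3 lines.

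Libraries pair by line, since each piPSC line came from the PEF line of its number. Deviations from group means correlated at 0.0921, 0.0946 and 0.0800 for same-numbered libraries. The line as a block, a pseudocount of 0.1, no filter, a minimum mean FPKM of 1, rescaling to the median ratio or to a sum of 1000000, limma voom on fragments and leaving out each library were alternatives, and counting only rows named in the table was added after the data were seen. Named were all members, up to 6 genes a list by change, the 3 largest changes each way between members on chromosome 7, and the 5 nearest profiles. PDIA3, TPP2, PSME1, PSME2, IFNGR1, JAK1 and the class I rows outside the lists were singled out after their values were seen. So were JAK2, IRF2, NFKB1, RELA, CIITA, NFYA, NFYC, CREB1 and ATF1. A gene of the lists is counted but not reported here.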

Additional observations from a re-analysis of the deposited data

Results flagged for a closer look

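PSMB8 moved in opposite directions in different lines. Its log2 ratio of piPSC to PEF, each FPKM plus 1, was -1.67 in line 5 and 1.02 in line 8, from 304 fragments in PEF5 to 58 in piPSC5 and from 370 in PEF8 to 568 in piPSC8. NLRC5 did so as well, at 0.92 in line 7 and -1.10 in line 8, from 23 fragments in PEF7 to 122 in piPSC7 and from 163 in PEF8 to 5 in piPSC8. Each line has 1 library per cell type, and the difference between lines was not tested for either gene.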

How the results depend on the processing

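The calls of the SLA-1/2/3 row, B2M and TAPBP as lower and the absence of a call for TAP1, TAP2, PSMB8 and PSMB9 held under all 13 alternatives. The count of members called lower was 3 to 3 and of members called higher 0 to 0 on leaving out each library, and counting only rows named in the table gave 2 and 0. The replicate block changed no call of a named gene beyond BVES and PEAK1, with 2023 genes lower and 2462 higher over the whole table. Without the filter on low values 1911 were lower and 2366 higher. Other pathway genes called lower were 18 after rescaling to a sum of 1000000, and those called higher were 4 after rescaling to that sum or to the median ratio, the scaling itself lowering piPSC values. On leaving out each library these counts ran from 10 to 13 and from 6 to 9, those over all genes from 1836 to 2066 and from 2213 to 2623, and the heavy chain difference from -3.19 to -2.22. The proteasome ratio ran from -0.70 to 0.0272, the latter without PEF8. TAP2 turned sign to -0.23 under the median ratio and -0.29 under the sum, and to -0.01, -0.12 and -0.09 without PEF5, PEF7 or piPSC8, and was at most 0.22, without PEF8. PSMB8 turned sign to 0.16 without PEF8, 0.58 without piPSC5 and 0.02 without piPSC7, and was lowest, at -0.999, without piPSC8. None of these passed the test, and the cause was not tested. The lowest libraries held 58 fragments of PSMB8 and 32 of PSMB9, the fewest among the tested members, so depth limits these rows most.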
